A study of Mus musculus with 6 samples.

Results

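The genes described are 6 keratins: the basal keratins Krt5 and Krt14, and Krt17, Krt6a, Krt6b and Krt16, which stratified epithelia switch on after wounding and which parts of the follicle use at rest. They were chosen by symbol, and all 6 are among the 52 keratin genes and 23377 gene symbols of the count table. Expression was measured by RNA-seq in hair follicle stem cells sorted from C57BL/6 mice, with 2 libraries of the genotype Ring1a/b-/- (knockout) and 2 of the genotype WT (wild type), each made from 3000 cells. Either of the proteins Ring1a and Ring1b can serve as the enzyme of Polycomb repressive complex 1, which marks histone H2A with ubiquitin at silenced genes. How, when and in which cells the genes were deleted, and the age and sex of the mice, were not given in the sources used here, nor whether replicates came from separate mice, so p-values reflect only the spread between these libraries, which may be technical.

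Keratins are the intermediate filament proteins of epithelial cells. Each filament needs a type I and a type II keratin in equal amounts, and the genes fall into a type I and a type II cluster. Krt5 (type II) pairs with Krt14 (type I) in the dividing basal layer of the epidermis and in the outer root sheath, the outer wall of the follicle. Krt6a and Krt6b (type II) pair with Krt16 and Krt17 (type I). Krt17 is also a regular keratin of the outer root sheath, and Krt6a is known from the companion layer inside it, so neither marks injury by itself in follicle cells.

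The upstream sequence of Krt5 is shown because Krt5 is the only 1 of the 6 genes with a RefSeq window that lies upstream of the gene. RefSeq start sites on GRCm38.p6 matched 2 of the 6 genes, Krt5 and Krt14, and the 250 bases before the Krt5 start are at chr15:101712906-101713155, minus strand, with a TATA-like stretch (ATAAAA) in capitals.
Krt5: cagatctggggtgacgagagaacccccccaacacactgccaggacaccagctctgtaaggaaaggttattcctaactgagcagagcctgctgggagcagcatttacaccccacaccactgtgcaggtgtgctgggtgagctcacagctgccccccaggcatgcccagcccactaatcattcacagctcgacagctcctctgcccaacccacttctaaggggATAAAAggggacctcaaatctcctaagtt
The ATAAAA match begins 29 bases before the start, and 17% of the 32851 promoter windows of this length hold one on either strand. The canonical TATA box, TATAAA, was not in this window on either strand, and 12.4% of windows hold it. The looser match was chosen after the sequence was read. The Krt14 entry lies inside the gene and is not shown. Ring1b peaks were not set beside these genes, since the peaks are on mm9 and no mm9 gene positions were used.

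The libraries held 4844381 and 7740945 counts in the knockout pair and 2785843 and 3056593 in the wild-type pair. Levels are given as CPM, counts scaled by TMM to a common depth. They are not corrected for transcript length, so levels are compared between libraries and not between genes. All 12 listed markers of follicle stem cells had enough counts to test, with 7 positive and 5 negative log2 fold changes and 0 past the threshold. Their sums of 1466 and 1243 CPM in the knockout pair overlapped the 1163 and 1314 CPM of the wild-type pair. Both knockout libraries lay above both wild-type libraries at 5 of the 12 and below at 2. Over all genes tested the shares were 24.8% above and 22.3% below. The overlap of the sums does not by itself show that each marker was unchanged. Marker sums of other cells differed between the genotypes. The 15 leukocyte markers found in the table summed to 1084 and 454 CPM in the knockout pair against 238 and 196 CPM in the wild type. In log2 fold change 12 of 12 tested were above 0. With a trend on abundance removed by cyclic loess 10 were positive and 2 negative, and without knockout replicate 1 the numbers were 9 and 3. Cd207, which defines Langerhans cells, had 0 counts in every library. The 13 fibroblast markers summed to 468 and 362 CPM against 674 and 890 CPM, but of 11 tested 6 had positive and 5 negative values, and Dcn, the most abundant, alone stood at 272 and 159 against 593 and 430 CPM. The sums were 8.48 and 6.35 against 17.1 and 57.1 CPM for endothelial markers, 46.03 and 38.2 against 9.87 and 23.4 CPM for Schwann cell markers, 33.3 and 33.9 against 27.3 and 13.3 CPM for Merkel cell markers, and 187 and 133 against 194 and 197 CPM for melanocyte markers. The Merkel cell sum of wild-type replicate 1 was mostly Tubb3, at 26.6 CPM there and not tested. Of the Merkel cell markers 2 were tested, and 2 had positive values. None of the marker genes above passed edgeR's test. The part of these cells in the keratin values was not tested. In bulk libraries, fewer cells of a type and less RNA per cell cannot be told apart.

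Krt5, Krt14 and Krt17 stood at 0.78 to 0.862 times the wild type in the knockout without passing the test, Krt6a varied more between the wild-type libraries than between genotypes, Krt6b was close to absent, and Krt16 stood higher in both knockout libraries without passing the test. Of the 6 keratins, 5 had enough counts to test and 0 passed edgeR's quasi-likelihood test at a Benjamini-Hochberg adjusted p under 0.05, with 0 also at an unadjusted p under 0.05. Across all 13134 genes tested, 0.0609% passed with adjustment and 16.6% without, so a count of 0 in 5 is near the background. The other tools gave the same count of 0 after adjustment, DESeq2 among them, which called 12.4% of the genes it could adjust. The authors' deposited table marked 0 of the 6 where it marked 5.36% of its genes. That mark did not follow an adjusted p under 0.05 alone. Krt73 was unmarked (log2 fold change -0.88, Wald adjusted p = 0.0128) and Krt85 was marked (-1.36, Wald adjusted p = 0.0674). Krt5, Krt14, Krt17 and Krt6a stood there at -0.25, -0.36, -0.22 and -0.65, all smaller changes than that of the unmarked Krt73. The lack of a mark at these genes is therefore not a further test at that threshold. Krt16, also unmarked, stood at 2.81 (Wald adjusted p = 0.181), a larger change than that of the marked Krt85. Without adjustment DESeq2 gave 2 of the 6 keratins, Krt14 and Krt16, where 19.4% of all genes had such a p.

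**Figure D1:**
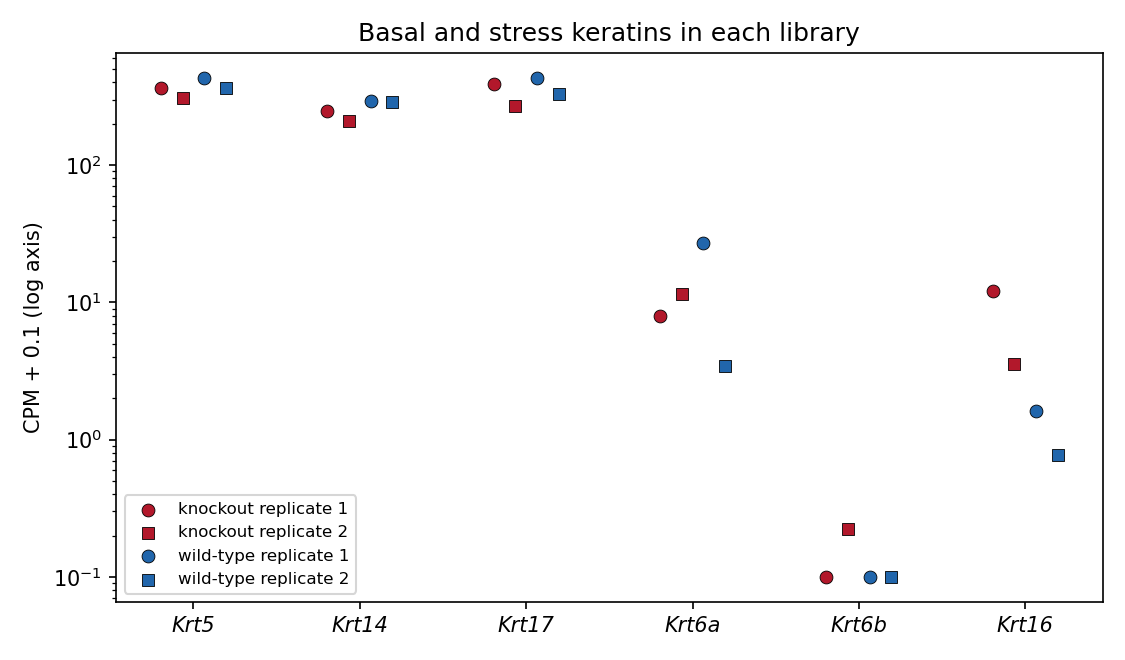
CPM of each keratin in each library, with 0.1 added and a logarithmic axis; each point is 1 library, coloured by genotype. Krt5, Krt14 and Krt17 lie between 208 and 431 CPM in all libraries, Krt6a is spread most within the wild type, Krt6b holds 1 count in all, and both knockout libraries of Krt16 lie above both wild-type libraries.

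Krt5 stood at 364 and 306 CPM in the knockout pair against 430 and 364 CPM in the wild-type pair. Knockout replicate 1 and wild-type replicate 2 were level, so the groups met, with means of 335 ± 41.3 and 397 ± 46.5 CPM (SD, n = 2 each). On the log2 scale knockout over wild type was -0.25 ± 0.19 (SE; adjusted p = 0.588 in edgeR), a level of 0.844 times the wild type with a 95% interval of 0.628 to 1.13. With a trend on abundance removed by cyclic loess, an alternative added once the values were known, it turned to 0.15.

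Krt14, the type I partner of Krt5, stood at 246 and 208 CPM in the knockout pair against 292 and 290 CPM in the wild-type pair. Both knockout libraries lay below both wild-type libraries, as they did at 22.3% of all genes tested. Its log2 fold change was -0.36 ± 0.18 (SE; edgeR adjusted p = 0.374), a level of 0.78 times the wild type with an interval of 0.585 to 1.04. A decrease to less than 0.585 times is outside that interval for this gene. DESeq2 gave an unadjusted p of 0.0218 and an adjusted p of 0.115, and cyclic loess brought the log2 fold change to -0.04.

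Inside the libraries the pair kept nearly 1 proportion in 3 of 4. The ratio of Krt5 to Krt14 counts, which needs no scaling between libraries, was 1.48 and 1.47 in the knockout pair against 1.47 and 1.26 in the wild-type pair. Of the 4 libraries, wild-type replicate 2 was the low one, and the other wild-type library lay between the knockout libraries. The genotypes differed by 0.12 on the log2 scale (exact two-sided permutation p = 0.667; 0.23 and 0.00142 when wild-type replicate 1 or 2, respectively, was left out), where 2 libraries against 2 cannot give a p below 0.33.

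Krt17, a type I keratin of the outer root sheath and of activated keratinocytes, stood at 387 and 269 CPM in the knockout pair against 431 and 330 CPM in the wild-type pair. The groups overlapped, and replicates within a genotype differed by more than the genotype means, 328 ± 83.7 and 381 ± 71.1 CPM (SD, n = 2 each). Its log2 fold change was -0.21 ± 0.23 (SE; edgeR adjusted p = 0.739), with an interval of 0.599 to 1.24 times the wild type. Without knockout replicate 2 the value was 0.01, without wild-type replicate 1 it was -0.01, and with cyclic loess it was 0.16, so its sign is not fixed by these libraries. The ratio of Krt17 to Krt14 counts was 1.57 and 1.29 in the knockout pair against 1.48 and 1.14 in the wild-type pair (exact permutation p = 0.667), and that of Krt17 to Krt5 was 1.06 and 0.88 against 1.00 and 0.907 (p = 1 in the exact permutation test).

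Krt6a, the type II stress and companion layer keratin, had 39 and 92 counts in the knockout pair against 71 and 10 in the wild-type pair. In CPM these were 7.87 and 11.5 against 27.0 and 3.34, so the wild-type libraries were both the highest and the lowest of the 4. The fitted value of -0.64 ± 1.11 (log2, SE; adjusted p = 0.862 in edgeR) had an interval of 0.111 to 3.7 times the wild type. The value turned to 1.54 without wild-type replicate 1 and was -1.49 without wild-type replicate 2, while limma-voom gave 0.12. No direction can be given for this gene.

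Krt6b, the near copy of Krt6a, had 0 and 1 counts in the knockout pair against 0 and 0 in the wild-type pair. This was too low to test, and no fold is given. A count of 0 over a genotype allows up to 0.533 CPM in the wild type, and the 1 knockout count lies under the matching limit of 0.231 CPM (3 counts over both libraries). PCR copies of a molecule are not independent, so such limits and intervals speak of counting error alone. Krt6a and Krt6b are similar enough to share reads, as are Krt14, Krt16 and Krt17 in part, and how reads with several matches were counted was not given in the sources used here. How counts were split between such genes is uncertain.

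Krt16, the type I stress keratin, was the gene of the 6 with the greatest fitted fold change. It had 59 and 28 counts in the knockout pair against 4 and 2 in the wild-type pair, or 11.9 and 3.49 CPM against 1.52 and 0.667. Both knockout libraries lay above both wild-type libraries, as at 24.8% of all genes tested, and they differed from each other more than 3-fold. Only the knockout libraries reached 10 counts, so the gene entered the test through the group in which it is high. The fitted log2 fold change was 2.79 ± 1.39 (SE; edgeR adjusted p = 0.362), with an interval of 0.769 to 62.4 times the wild type. Summed over libraries, 87 against 6 counts gave 6.29 times the wild-type level, with 2.77 to 17.6 as the 95% counting interval, which leaves out the spread between libraries. The ratio was 3.27 (1.33 to 9.66) without knockout replicate 1, 11.2 (4.84 to 31.7) without knockout replicate 2, and 10.0 (2.7 to 84.2) without wild-type replicate 1, where 2 wild-type counts are left. It was positive in every setting tried, with a log2 fold change of 1.11 under cyclic loess, and an adjusted p under 0.05 was reached in 0 of them. Knockout replicate 1, the higher library for Krt16, was also the one with the highest leukocyte sum, whose part in this value was not tested.

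The fitted values of Krt16 and its type II partner had opposite signs, and neither passed the test. The ratio of Krt6a to Krt16 counts was 0.661 and 3.29 in the knockout pair against 17.8 and 5 in the wild-type pair. Both knockout libraries lay below both wild-type libraries, and the exact permutation p of 0.33 is the smallest that this design allows. The wild-type ratios rest on 4 and 2 Krt16 counts, and the genotype difference of -2.68 in log2 ratio ran from -3.83 without knockout replicate 2 to -1.52 without knockout replicate 1.

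**Figure D2:**
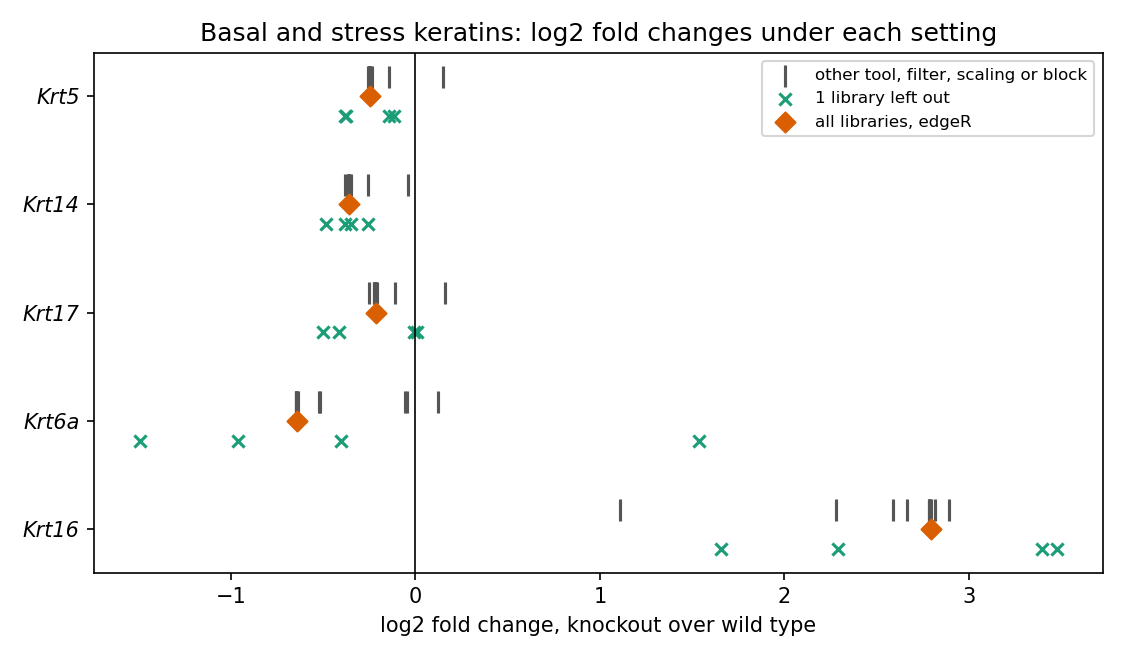
Log2 fold change (knockout over wild type) for the 5 tested keratins with all libraries (diamond), under another tool, filter, scaling or block (bars) and with 1 library left out (crosses). Krt5, Krt14 and Krt17 lie between -0.50 and 0.16, with Krt5 and Krt17 turning sign under cyclic loess and Krt17 also without knockout replicate 2. Krt6a falls on both sides of 0, and Krt16 runs from 1.11 to 3.48.

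Together the 6 keratins took 0.104% and 0.0828% of all counts in the knockout pair against 0.112% and 0.0969% in the wild-type pair. The groups overlapped, and the widest 95% Wilson interval, that of wild-type replicate 1, was 0.108% to 0.116%. The difference of means was -0.0109 percentage points (exact permutation p = 0.667), and ran from -0.0215 without knockout replicate 1 to -0.000243 without knockout replicate 2. As a share of keratin counts the direction was the other way: 32.3% and 27.1% in the knockout against 24.2% and 24.8% in the wild-type pair, with no overlap and the smallest exact p of 0.33. All keratins together were lower in the knockout, at 0.322% and 0.305% of counts against 0.462% and 0.391%.

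Other keratins made up the rest. The 22 listed keratins of the hair shaft and inner root sheath, the sheath that moulds the growing hair, held 38.6% and 44.8% of keratin counts in the knockout pair against 62.2% and 60.1% in the wild type. The 5 keratins listed for the bulge and outer root sheath held 24.0% and 21.9% against 11.9% and 11.7%. That list also holds Krt75, a companion layer keratin, and Krt79, of the upper follicle. This class did not rise evenly. Of its 3735 and 5164 counts against 1527 and 1404, Krt75 held 1082 and 1728 against 324 and 277. Krt79 held 1102 and 1302 against 55 and 6. Krt15 held 1501 and 2010 against 1099 and 1084, and was lower in CPM in the knockout. Libraries labelled as stem cells thus held more keratin counts of the hair and inner root sheath than of any other class, in both genotypes.

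**Figure D3:**
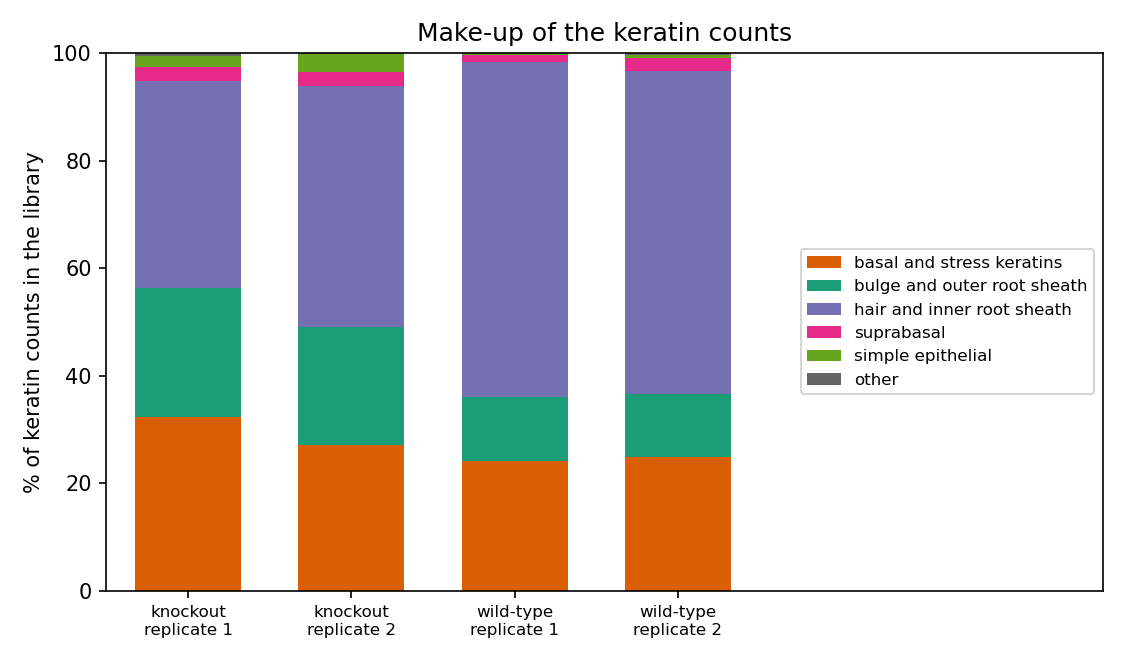
Share of each library's keratin counts, in percent, taken by classes of keratins; each bar is 1 library and counts are not corrected for transcript length. The basal and stress keratins take 24.2% to 32.3%, and the hair and inner root sheath class is smaller in both knockout libraries.

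Of the 46 other keratins 18 were tested, and 0 passed in edgeR after adjustment. At an unadjusted p under 0.05 there were 11 of these 18, against 0 of the 5 tested basal and stress keratins and 16.6% of all genes. Their median log2 fold change was -0.39, against -0.25 for the 5 tested basal and stress keratins and 0.03 for all genes tested. Of the hair and inner root sheath keratins 8 were tested, 7 with negative values and 1, Krt32, with a positive one, with a median of -1.18 (-0.75 with cyclic loess). Krt71, a type II inner root sheath keratin, stood at 433 and 378 against 1063 and 811 CPM, or -1.21 ± 0.2 in log2 fold change (SE; adjusted p = 0.0835 in edgeR). Its partners Krt25 and Krt28 had log2 fold changes of -1.16 and -1.02.

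The keratins listed for the bulge and outer root sheath were divided. Krt15, a type I bulge keratin, stood at 303 and 250 against 417 and 362 CPM (log2 fold change -0.49 ± 0.19 SE, edgeR adjusted p = 0.238). Krt75, a type II companion layer keratin related to Krt6a, stood at 218 and 215 against 123 and 92.4 CPM (1.01 ± 0.22, edgeR adjusted p = 0.147). Krt79, of the upper follicle, stood at 222 and 162 against 20.9 and 2 CPM. DESeq2 called 11 of the 52 keratins, Krt15, Krt75 and Krt79 among them, and edgeR called 8 with no low-count filter (4.26% of its genes passed) and 7 with a replicate block (3.17%), with 0 of the basal and stress keratins in each. The authors' deposited table marked 4 keratins higher and 6 lower. Whether the 6 genes differ from the other keratins was tested only through the shares above.

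**Figure D4:**
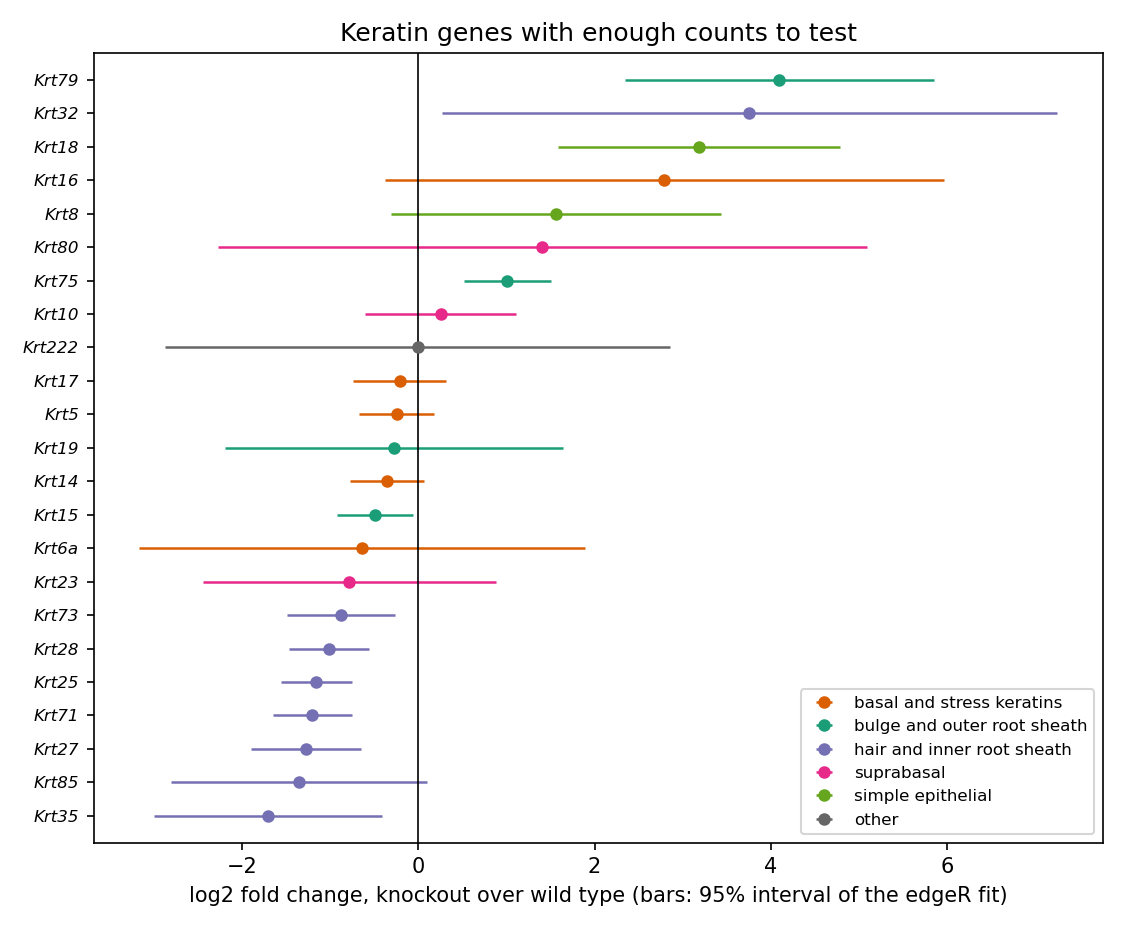
Log2 fold change (knockout over wild type) and its 95% interval from the edgeR fit for the 23 keratins with enough counts to test, coloured by class. The intervals of the 5 basal and stress keratins all include 0, and those of Krt5, Krt14 and Krt17 are the narrow ones; 0 of the 23 passed after adjustment.

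Suprabasal keratins, which replace Krt5 and Krt14 when basal cells differentiate, were tested at 3 of 9 genes and 0 passed. Krt10 stood at 62.0 and 54.3 against 38.7 and 58.7 CPM, with overlap (log2 fold change 0.25 ± 0.37 SE, edgeR adjusted p = 0.832). Krt1, its type II partner in the epidermis, had 1 count in the 4 libraries. Krt23 had a log2 fold change of -0.78 and Krt80 of 1.41, and their edgeR adjusted p were 0.682 and 0.761. The simple epithelial keratins Krt8 and Krt18 stood at 23.2 and 49.5 against 4.56 and 20.0 CPM, and at 39.4 and 41.0 against 3.42 and 5.34 CPM (edgeR adjusted p = 0.39 and 0.147).

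Proteins that anchor keratin filaments to desmosomes and hemidesmosomes gave 0 of 19 past the threshold, 12 with positive and 7 with negative values, and a median log2 fold change of 0.09 (-0.01 without wild-type replicate 1). Desmoplakin (Dsp), which ties keratins to desmosomes, stood at 644 and 620 against 727 and 844 CPM (log2 fold change -0.31 ± 0.17 SE, edgeR adjusted p = 0.409). Perp, a desmosomal membrane protein, stood at 477 and 350 against 802 and 650 CPM (-0.81 ± 0.21, edgeR adjusted p = 0.149). In both genes each knockout library lay below each wild-type library, as at 22.3% of all genes tested. Of the 19 genes, 6 lay below in this way and 4 lay above, as at 24.8% of all genes. The 4 were Dst, Col17a1, Itgb4 and Ppl, with log2 fold changes of 0.58, 0.64, 0.58 and 0.94. Desmosome and hemidesmosome genes were not compared apart.

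Known regulators of the basal and stress keratin genes gave 0 of 21 past the threshold, 11 with positive and 10 with negative values. Their median of 0.02 was negative without any 1 of the libraries (-0.0529 to -0.00868). Trp63, the master regulator of stratified epithelia that drives Krt5 and Krt14, stood at 369 and 361 against 538 and 409 CPM (log2 fold change -0.38 ± 0.19 SE, edgeR adjusted p = 0.373). Gata3, a factor of the inner root sheath, stood at 458 and 387 against 712 and 570 CPM (-0.6 ± 0.19, edgeR adjusted p = 0.18). Both were lower in each knockout library than in each wild-type library, as at 22.3% of all genes tested. Of the 21 regulators, 5 lay below in this way and 2 lay above, where 24.8% of all genes tested lay above. The 2 above were Stat3 and Klf4, with log2 fold changes of 0.97 and 0.27.

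Genes that keratinocytes raise beside Krt6, Krt16 and Krt17 in wounds gave 0 of 11 tested past the threshold, 4 with positive and 7 with negative values, and a median of -0.43 that turned to 0.16 without wild-type replicate 1. Of the 32 in the table, 11 had 0 counts in every library, among them the alarmins S100a8 and S100a9. The most abundant were the connexins Gjb2, at 457 and 345 against 701 and 623 CPM, and Gjb6, at 152 and 126 against 260 and 198 CPM (edgeR adjusted p = 0.15 and 0.172). Among the 4 with positive values, the growth factor Tgfa stood at 20.2 and 5.23 against 0.759 and 0 CPM and Hbegf, another ligand of the EGF receptor, at 32.5 and 22.0 against 4.56 and 15.7 CPM (edgeR adjusted p = 0.19 and 0.444), and the groups overlapped for Il1b and Sprr1a. Sox11 and Il1a, too low to test, had counts in both knockout libraries and 0 in the wild type. Lcn2, also too low to test, had 1 and 2 counts in the wild-type libraries and 0 in the knockout. For S100a8 and S100a9, 0 counts allow up to 0.231 CPM in the knockout.

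The genes with the most similar profiles over the 4 libraries were sought by the root mean square difference of centred log2(CPM + 1) values among 10419 genes of at least 10 CPM (10420 for Krt16). For Krt5 they were Ece1 (0.02) and Elf2 (0.0263), for Krt14 Mknk2 (0.0128) and Srp68 (0.0177), and for Krt17 Pbdc1 (0.0238) and Tfcp2 (0.0242). For Krt6a they were Ly6g6c (0.0295) and Pigw (0.177), and for Krt16 Nfkbie (0.092) and Obsl1 (0.14). Within 0.1 there were 334 genes for Krt5, 431 for Krt14 and 92 for Krt17, but 1 each for Krt6a and Krt16. Krt14 was the nearest keratin to Krt5, at rank 327, so with 4 libraries many other genes lie as close as the partner.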

How the data were processed

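The deposited count table holds whole-number counts per gene symbol, with no normalization by the authors. The submitters' processing notes name TopHat2 2.1.1, Bowtie 1.2.2, HTSeq 0.7.2, DESeq2 and mm9; settings, annotation, strand use and the handling of duplicates were not given in the sources used here. Per the labels, the libraries were made by SMART-seq2 with PCR amplification. The authors' deposited comparison table gives, per the file headers, a mean normalized signal, a Wald score, p-values with and without adjustment, and a log2 fold change with its error.

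The main test used edgeR 4.0.16 in R 4.3.3 (filterByExpr, TMM, robust glmQLFit, glmQLFTest, genotype as the only term), with Benjamini-Hochberg adjustment over 13134 genes and a threshold of 0.05. The SE is the size of the log2 fold change over the root of F, and intervals use the test's degrees of freedom. Alternatives used DESeq2 1.42.0, limma 3.58.1, other scalings and filters, a replicate block, cyclic loess, and each library left out. The fit was tested on simulated data. Total counts per library ran from 2785843 to 7740945. The 6 genes, the gene lists and the naming rule were chosen with earlier results of these data known. The rule named the 3 most abundant genes of each keratin list and the 2 most abundant of each other list. It also named any past the threshold and the 2 nearest profiles. Krt1, Krt12, Krt32, Krt36, Krt73, Krt83, Krt85, S100a8, S100a9 and Cd207 were named after their values were seen. So were Tgfa, Hbegf, Il1b, Sprr1a, Sox11, Il1a, Lcn2, Dst, Col17a1, Itgb4, Ppl, Stat3, Klf4 and Tubb3. Cell marker lists are given by sums and counts. Except for Dcn and Tubb3, their most abundant genes are not named as markers, a departure from the naming rule. The deposited normalized table and the peak lists were not used.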

Additional observations from a re-analysis of the deposited data

How the results depend on the processing

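No setting called a basal or stress keratin after adjustment. The total of genes past the threshold, 8 in edgeR, was 1792 with DESeq2, 0 with limma-voom (1956 at an unadjusted p under 0.05), 1 with DESeq2 size factors, 802 with no low-count filter, 1 with at least 1 CPM in 2 libraries and 0 with cyclic loess (1767 unadjusted), and ran from 0 to 60 with 1 library left out. Replicate 1 minus replicate 2 differences correlated at -0.141 between the genotypes, so the replicate numbers were not taken as pairs; the replicate block gave 416, and the crossed block, added after the data were seen, 8. Using library totals alone moved the median of all genes from 0.03 to 0.13; Krt5, Krt14 and Krt17 then stood at -0.14, -0.26 and -0.11. Signs turned for Krt5 (0.15) and Krt17 (0.16) with cyclic loess, for Krt17 without 1 library (-0.50 to 0.00903), and for Krt6a with limma-voom (0.12) and without 1 library (-1.49 to 1.54). The log2 fold change of Krt6a was -0.04 with the replicate block. Across single libraries left out, the genotype difference in log2 ratio ran from -0.0495 to 0.32 for Krt17 to Krt14 and from -0.12 to 0.16 for Krt17 to Krt5. The share of the 6 keratins differed by -0.0109 percentage points of all counts and by 5.26 points of keratin counts. Across single libraries left out, list medians ran from -0.63 to 0.49 for suprabasal, 2.02 to 3.53 for simple epithelial and -1.22 to -0.77 for hair and inner root sheath keratins, from -0.0102 to 0.20 for filament anchors, from -0.0529 to -0.00868 for regulators (0.02 with all) and from -0.75 to 0.16 for wound genes. The cause of these changes was not tested. With 2 libraries per genotype and few Krt6a and Krt16 counts, only large differences could be shown for these 2 genes. Ratios to Krt6b could not be formed, and ratios per transcript length were not run, since the lengths at hand include introns.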

Other observations

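Of the 52 keratin genes, 32 to 37 had a count in a library, and 20 to 26 had at least 10. Krt12, known as a keratin of the corneal epithelium, had 7 and 44 counts in the knockout and 0 in both wild-type libraries, at least 7.37-fold higher (at least 2.65-fold without knockout replicate 2, at least 10.3-fold without knockout replicate 1). Krt7, a simple epithelial keratin, had 2 and 64 knockout counts and 0 in the wild type, at least 9.54-fold higher, and without knockout replicate 2 both genotypes were under 3 counts, so that value rests on 1 library. Both bounds are against a floor of 3 counts over the wild-type libraries, and neither gene had enough counts to test. Both were listed for having 0 wild-type counts and at least 10 counts over the knockout pair. The direction and a smallest size are fixed by that choice. Other keratins with 0 wild-type counts had fewer knockout counts and are not listed. No bounds were formed for keratins with 0 knockout counts, such as Krt83 (3 and 4 wild-type counts) and Krt36 (4 and 1).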
